A study of Mus musculus with 6 samples.

Results

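The very wide peaks were the 3887 of 90823 consensus ATAC-seq peaks (4.28%) that lay on chromosomes 1 to 19 and were at least 1500 bp wide. They were chosen by the width column of the deposited table alone, without regard to any count; another 67 peaks of that width on X and Y were left out by the rule. The study measured open chromatin in mouse intestinal organoids, which are grown from isolated crypts in Matrigel, after 3 days with arachidonic acid (AA) at 25 µM, with prostaglandin E2 (PGE2) at 50 nM, or with vehicle. Each group had 2 libraries (AA-1 and AA-2, PGE2-1 and PGE2-2, Vehicle-1 and Vehicle-2). All cultures, Vehicle included, grew with EGF, Noggin, R-spondin, N-acetyl-cysteine, B27, N2, the GSK3 inhibitor CHIR-99021 and the ROCK inhibitor Y-27632, per the labels' protocols. Sorted epithelial cells entered the Omni-ATAC reaction, and the stroma that surrounds a crypt in the animal is no part of such cultures. The labels give no mouse strain or age and do not say whether the libraries of a group came from separate cultures, so p-values measure only the spread between these libraries.

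ATAC-seq uses a transposase that inserts adapters where DNA is not wrapped by nucleosomes or packed away, so counts in a peak follow how accessible that stretch is. A wide peak spans several nucleosomes' worth of open DNA; such stretches are typical of promoters in CpG islands and of clustered enhancers near genes that define a cell type. AA is a fatty acid that cyclooxygenases turn into prostaglandins, and PGE2 acts through the receptors EP1 to EP4, of which EP2 and EP4 raise cyclic AMP. The width itself was set on these libraries, since the consensus peaks came from them, and how the authors merged peaks is not given in the sources used here.

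The sequences of 6 promoters are shown because their wide peaks carry contrasts described below. Of these, 2 were CpG-poor and more open with both agents, most with AA (Trim6 and Isx). Another 2 were less open with both agents (Lmcd1 and Chrm3), and 2 were CpG-rich and more open with PGE2 (Zfp664 and Sumo2). The 6 sequences are examples and do not stand for all promoters of like CpG content, which are described further below. Each is the 250 bases before the annotated start of the gene, 5′ to 3′ on the gene's strand, from RefSeq on build GRCm38.p6. Capitals mark matches, on either strand, to the 10 motifs searched, which are spelled out beside their shares in the paragraph on motifs. Matches of different motifs may overlap.
Trim6 (chr7:104218545-104218794, + strand): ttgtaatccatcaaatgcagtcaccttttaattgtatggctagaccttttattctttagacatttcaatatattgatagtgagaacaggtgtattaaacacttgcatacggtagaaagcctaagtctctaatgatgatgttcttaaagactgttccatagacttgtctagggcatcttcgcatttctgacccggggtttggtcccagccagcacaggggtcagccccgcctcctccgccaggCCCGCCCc
Isx (chr8:74872924-74873173, + strand): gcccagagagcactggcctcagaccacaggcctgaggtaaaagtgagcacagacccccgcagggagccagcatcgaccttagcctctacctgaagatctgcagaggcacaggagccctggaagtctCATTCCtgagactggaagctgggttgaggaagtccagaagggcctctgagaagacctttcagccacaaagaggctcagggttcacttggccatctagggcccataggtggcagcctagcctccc
Lmcd1 (chr6:112273508-112273757, + strand): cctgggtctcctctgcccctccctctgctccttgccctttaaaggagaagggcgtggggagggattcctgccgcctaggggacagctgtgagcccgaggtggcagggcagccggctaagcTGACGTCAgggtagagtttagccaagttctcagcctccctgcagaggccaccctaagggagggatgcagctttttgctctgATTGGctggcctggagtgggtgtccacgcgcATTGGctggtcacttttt
Chrm3 (chr13:10360804-10361053, - strand): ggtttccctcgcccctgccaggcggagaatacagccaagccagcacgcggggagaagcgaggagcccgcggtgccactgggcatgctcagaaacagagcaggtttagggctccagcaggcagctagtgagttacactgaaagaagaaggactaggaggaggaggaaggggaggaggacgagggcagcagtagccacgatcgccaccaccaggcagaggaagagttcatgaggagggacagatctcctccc
Zfp664 (chr5:124862455-124862704, + strand): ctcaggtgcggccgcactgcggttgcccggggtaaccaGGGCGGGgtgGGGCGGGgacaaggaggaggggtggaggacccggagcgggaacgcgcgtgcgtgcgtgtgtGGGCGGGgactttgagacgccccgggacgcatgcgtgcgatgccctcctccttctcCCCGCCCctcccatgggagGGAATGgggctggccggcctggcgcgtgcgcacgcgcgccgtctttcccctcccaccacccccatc
Sumo2 (chr11:115536231-115536480, - strand): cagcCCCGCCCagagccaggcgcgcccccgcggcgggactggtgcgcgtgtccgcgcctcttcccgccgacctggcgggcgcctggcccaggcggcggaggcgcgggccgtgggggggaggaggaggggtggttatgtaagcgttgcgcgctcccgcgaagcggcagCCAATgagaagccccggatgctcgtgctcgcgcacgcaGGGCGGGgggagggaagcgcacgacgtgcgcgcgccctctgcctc
In these windows the Trim6, Isx, Lmcd1 and Chrm3 promoters held 6, 2, 7 and 10 CpG, and the Zfp664 and Sumo2 promoters held 28 and 37. The Lmcd1 window held a full CRE match and 2 NFY matches, and the Chrm3 window held none of the 10 motifs. A match describes letters only and shows no binding.

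The wide peaks had a median width of 1730 bp: 3015 were 1500 to under 2000 bp wide, 707 were 2000 to under 2500 bp and 165 were 2500 bp or more. They covered 7106.514 kb of the 58815.999 kb in all peaks. A gene-end peak is one whose centre lay within 1 kb of a start or end coordinate of a coding gene, since the gene table used carried no strand. By that measure 2242 wide peaks (57.7%) were at gene ends, against 16.1% of all peaks. The whole 300-base promoter window of at least 1 gene (250 bases before the start to 50 after) lay in 2000 wide peaks (51.5%), against 9.33% of all peaks, and 249 wide peaks held windows of 2 or more genes. Of the wide peaks 71.7% had their centre inside a gene, against 56.0% of all peaks; the gene table gave no exons, so finer classes were not used here. A nearest gene end within 50 kb existed for 93.2%, at 3347 genes. Nearness names a peak here and says nothing of which gene it acts on. The share of peaks that were wide varied little between chromosomes, with 5.72% on chromosome 19 and 3.36% on chromosome 6 as the extremes.

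Wide peaks were not only longer but denser. Their median density in the Vehicle libraries was 17.6 CPM per kb, where CPM are counts scaled to the TMM-adjusted library total, with a range of 1.68 to 116, against 8.51 for all peaks. The median wide peak held 418 to 524 counts in a library, against 57 to 66 for all peaks. All 3887 passed the filter on low counts, which left 89347 peaks for testing; the same fold change is therefore easier to call in a wide peak than in a typical one.

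Library totals were 12374232 to 14236985 counts. Gene-end peaks were present at 7 of 7 epithelial marker genes, with summed levels of 491 and 494 CPM with AA, 480 and 498 CPM with PGE2, and 478 and 478 CPM with Vehicle. Of 10 stromal marker genes only Twist1 had a gene-end peak, at 1.07 to 2.6 CPM over the 6 libraries, and none had a wide peak. Immune markers had gene-end peaks at 4 of 10 genes (60.5 to 61.3 CPM with AA, 65.9 to 69.2 with PGE2, 58.7 to 59.3 with Vehicle) and endothelial markers at 5 of 10 (11.9 to 14.8, 16.3 to 16.5 and 15.3 to 16.2 CPM in the same order). The part of these levels in the results was not tested. In bulk libraries, fewer cells of a type and less signal per cell cannot be told apart.

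The share of all counts that fell in wide peaks was higher in every AA and every PGE2 library than in the Vehicle libraries, and most of the difference lay at gene ends. It was 15.6% and 15.7% in the AA libraries, 16.3% and 17.0% in the PGE2 libraries, and 15.1% and 15.03% in the Vehicle libraries. No group overlapped another, and the PGE2 libraries differed most between themselves. The mean was 0.55 percentage points above Vehicle with AA and 1.56 points above with PGE2, and AA was 1.01 points below PGE2. Each exact permutation test, two-sided, gave p = 0.33 (0.33 after adjustment over the 3 comparisons), the smallest p that 2 against 2 libraries allow. Wide gene-end peaks took 8.94% and 9.10% of counts with AA, 9.69% and 10.4% with PGE2, and 8.60% and 8.49% with Vehicle. Wide peaks away from gene ends took 6.62% and 6.59% with AA, 6.60% and 6.61% with PGE2, and 6.51% and 6.55% with Vehicle.

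**Figure D1:**
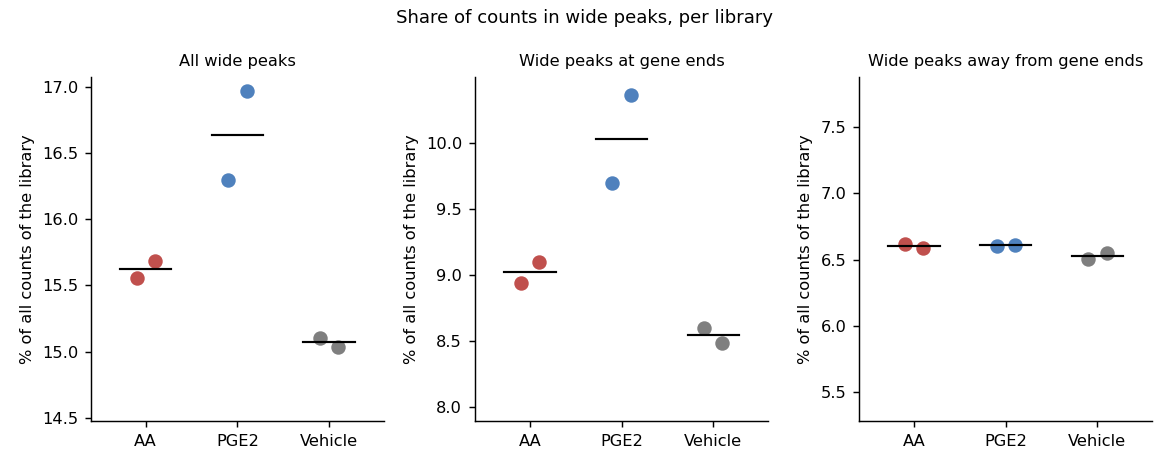
Share of all counts of a library (percent, y axis) that fell in wide peaks, in wide peaks at gene ends and in wide peaks away from gene ends, for the AA, PGE2 and Vehicle libraries (points; bars are the means of 2; axes do not start at 0 but span the same number of points). All wide peaks took 16.3% and 17.0% with PGE2 against 15.1% and 15.03% with Vehicle, and those away from gene ends stayed between 6.51% and 6.62% in every library.

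Part of that difference was shared by all gene ends: gene-end peaks of any width took 32.3% and 32.8% of counts with AA, 34.3% and 35.8% with PGE2, and 31.9% and 31.4% with Vehicle. Within the counts of gene-end peaks, the wide ones still took more: 27.6% and 27.7% with AA, 28.2% and 28.9% with PGE2, and 26.9% and 27% with Vehicle. Within the counts of all other peaks, the wide ones took 9.78% and 9.81% with AA, 10.1% and 10.3% with PGE2, and 9.56% and 9.55% with Vehicle. The exact permutation test gave p = 0.33 for each of these comparisons too.

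With AA, 881 wide peaks (22.7%) were called higher and 380 (9.78%) lower than with Vehicle by edgeR's quasi-likelihood test at an adjusted p under 0.05. Over all tested peaks the shares were 16.7% higher and 13.8% lower. The median log2 change was 0.09 in wide peaks and -0.02 in all tested peaks. Changes of at least 1.5-fold were called in 55 of the 3887 wide peaks higher and 68 lower. Over all 89347 tested peaks the counts were 9085 (10.2%) and 6980 (7.81%), both larger shares than in wide peaks. Most called changes in wide peaks were smaller than 1.5-fold. The 2242 wide peaks at gene ends split 525 higher (23.4%) and 108 lower (4.82%). The 1645 away from gene ends split 356 higher (21.6%) and 272 lower (16.5%). In every called wide peak the AA and Vehicle libraries did not overlap. The calls came from a test on these same libraries, which favours peaks without overlap, and the share among other called peaks was not computed. The lack of overlap therefore adds no evidence to the calls and cannot be read as a trait of wide peaks. The split depended on scaling: with library totals it was 19.4% higher and 12.1% lower, and with cyclic loess 16.1% higher and 13.2% lower, against 16.3% and 13.6% of all tested peaks. Under cyclic loess the wide peaks away from gene ends had 16.5% higher and 21.1% lower with AA.

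Among weak wide peaks, lower calls outnumbered higher ones with AA, both at gene ends and away from them. At gene ends 1 of the 40 with an average log2 CPM of 2 to 3 was higher and 5 lower (12.5%). Of the 235 there at 3 to 4, 12 were higher (5.11%) and 27 lower (11.5%), and at 4 to 5 the shares were 18.9% and 4.85%. Of the 61 away from gene ends with an average log2 CPM of 2 to 3, 1 was called higher and 22 lower (36.1%), with a median log2 change of -0.32. Among the 232 at 3 to 4, 29 were higher (12.5%) and 63 lower (27.2%). At 4 to 5 the shares were 21.2% and 18.7%, and at 5 to 6 they were 25.5% and 11.9%. Among the 255 at 6 to 7, 66 were higher (25.9%) and 23 lower (9.02%). Narrower peaks away from gene ends had 19.8% higher and 18.3% lower with AA at 2 to 3, and 22.5% and 21.7% at 3 to 4. They had 22.3% and 20.0% at 4 to 5, 19.9% and 17.4% at 5 to 6, and 17.4% and 15.2% at 6 to 7. For PGE2 against Vehicle the wide peaks away from gene ends had 13.1% higher and 21.3% lower at 2 to 3, and 25.0% and 12.9% at 3 to 4. The shares were 31.7% and 15.4% at 4 to 5, 31.1% and 10.6% at 5 to 6, and 16.5% and 17.6% at 6 to 7.

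The largest gain with AA was near Palmd, which encodes palmdelphin. The peak at chr3:116950655-116952631 (mm10) had 14.4 and 13.5 CPM with AA, 10.4 and 13.0 with PGE2, and 4.52 and 4.65 with Vehicle. It was higher with AA by 1.61 ± 0.15 on the log2 scale (SE; edgeR adjusted p = 6.6e-12) and with PGE2 by 1.35 ± 0.15 (adjusted p = 3.6e-09). All treated libraries lay above the Vehicle libraries, and it was among the 4 wide peaks with the fewest CPM per kb. Another of those 4, within 1 kb of an end of Tlr4, the receptor for bacterial lipopolysaccharide, had 10.3 and 12.5 CPM with AA, 9.08 and 10.3 with PGE2, and 3.6 and 4.04 with Vehicle. Its log2 change was 1.57 ± 0.16 with AA (adjusted p = 1e-10) and 1.34 ± 0.16 with PGE2 (adjusted p = 2.6e-08).

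Other wide peaks rose with both agents and more with AA. The peak near F11r, which encodes the tight junction protein JAM-A, had 36.2 and 37.6 CPM with AA, 27.5 and 24.6 with PGE2, and 13.2 and 14.9 with Vehicle. Its log2 change was 1.40 ± 0.09 with AA (adjusted p = 2.8e-15), and AA exceeded PGE2 by 0.50 ± 0.08 (adjusted p = 9.6e-05). At Trim6, a tripartite motif ubiquitin ligase whose promoter is shown above, AA gave 29.5 and 29.6 CPM, PGE2 24.2 and 21.6 CPM, and Vehicle 12.1 and 14.0 CPM. Peaks near Sord (sorbitol dehydrogenase), Itga1 (a collagen-binding integrin subunit, its nearest end 24422 bp away), Apol6 (an apolipoprotein L family member) and Lmtk2 (a membrane-anchored kinase, its nearest end 25917 bp away) also rose with AA. Their log2 changes were 1.00, 1.01, 1.27 and 1.07 with AA, and 0.54, 0.73, 0.92 and 0.92 with PGE2. Of these 4, the AA level exceeded the PGE2 level past the threshold for Sord, Itga1 and Apol6.

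The largest loss was at Chrm3, which encodes the muscarinic acetylcholine receptor M3. The peak at chr13:10359438-10361357 (mm10), holding the promoter shown above, had 7.18 and 7.02 CPM with AA, 9.31 and 10.6 with PGE2, and 19.3 and 21.7 with Vehicle. It fell by 1.53 on the log2 scale with AA (SE 0.12, adjusted p = 2.3e-13) and by 1.04 with PGE2 (SE 0.11, adjusted p = 2.2e-09), and AA was below PGE2 by 0.49 (SE 0.14, adjusted p = 0.016). At Lmcd1, which encodes a LIM domain cofactor that restrains GATA6, levels were 32.0 and 31.7 CPM with AA, 31.3 and 33.0 with PGE2, and 65.9 and 67.6 with Vehicle. The log2 changes there were -1.07 with AA and -1.05 with PGE2 (SE 0.07 each) and the difference between AA and PGE2 was -0.01 ± 0.07 (adjusted p = 0.94).

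Nrp1, a co-receptor for semaphorins and VEGF, had 9.99 and 9.30 CPM with AA, 10.1 and 11.8 with PGE2, and 20.6 and 20.8 with Vehicle. Slc6a15, a neutral amino acid transporter, Sfrp5, a secreted Wnt inhibitor, and Dnah11, an axonemal dynein, fell with AA by 1.02, 0.95 and 0.95 on the log2 scale, and with PGE2 by 0.90, 0.46 and 0.60. The wide peak near Ptger2, the gene of the prostaglandin receptor EP2, had 2.74 and 2.20 CPM with AA, 3.20 and 2.62 with PGE2, and 6.36 and 3.74 with Vehicle; its 2 Vehicle libraries differed more than the treated ones did. Its log2 change was -1.01 ± 0.23 with AA (adjusted p = 0.00097) and -0.79 ± 0.23 with PGE2 (adjusted p = 0.0089). A peak assigned to the predicted gene Gm42346, 41.6 kb away, fell by 0.99 with AA and 0.80 with PGE2.

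**Figure D2:**
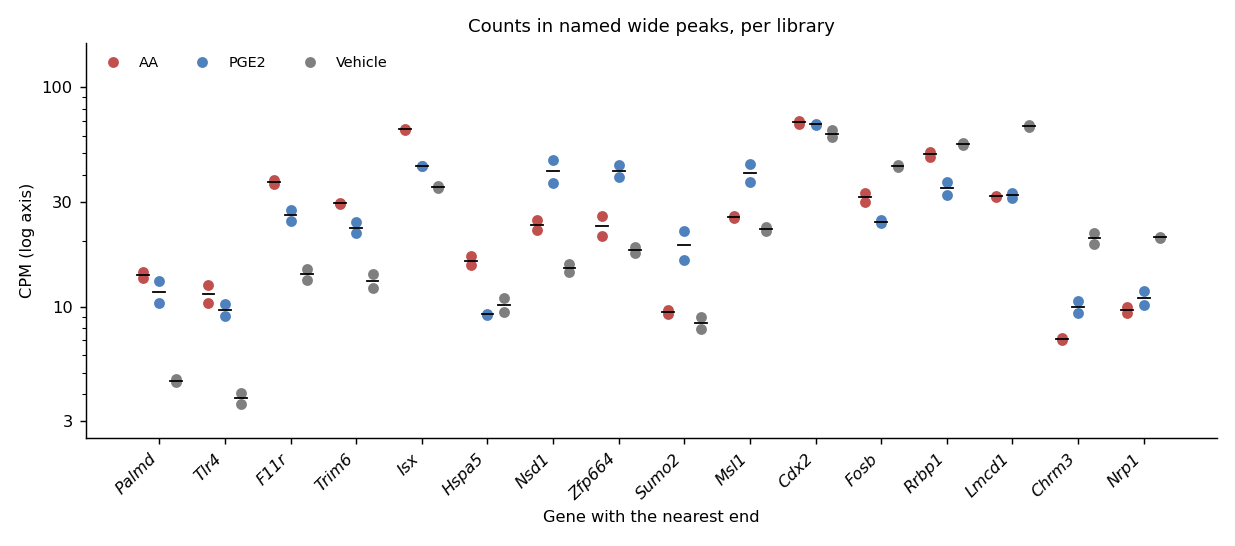
CPM on TMM-scaled totals (log axis) in 16 wide peaks, labelled by the gene with the nearest end, with AA, PGE2 and Vehicle libraries as points from left to right and a bar at the mean of 2. Levels near Palmd are 14.4 and 13.5 CPM with AA against 4.52 and 4.65 CPM with Vehicle, those at Chrm3 are 7.18 and 7.02 CPM against 19.3 and 21.7 CPM, and those near Msl1 are 36.9 and 44.8 CPM with PGE2 against 23.0 and 22.0 CPM with Vehicle.

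With PGE2, 1696 wide peaks (43.6%) were called higher and 302 (7.77%) lower than with Vehicle, against 14.3% higher and 10.6% lower over all tested peaks. The median log2 change was 0.19 in wide peaks and -0.00224 in all tested peaks. Changes of at least 1.5-fold were called in 487 wide peaks higher (12.5%) and 34 lower (0.875%), against 7.9% and 4.82% of all tested peaks. Of the 1696, 1694 had PGE2 and Vehicle libraries that did not overlap. Here too the calls came from the same libraries and other called peaks were not counted, so this adds no evidence to the calls. At gene ends 1246 of 2242 wide peaks (55.6%) were higher and 71 (3.17%) lower, with a median log2 change of 0.30. Away from gene ends 450 of 1645 (27.4%) were higher and 231 (14.0%) lower, with a median of 0.03. The 1321 wide peaks with neither a gene end nor a promoter window had 19.4% higher and 16.9% lower. When gene-end peaks and other peaks were scaled separately, 33.8% of wide peaks were higher and 13.5% lower, and 36.4% of those at gene ends were higher and 14.4% lower.

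**Figure D3:**
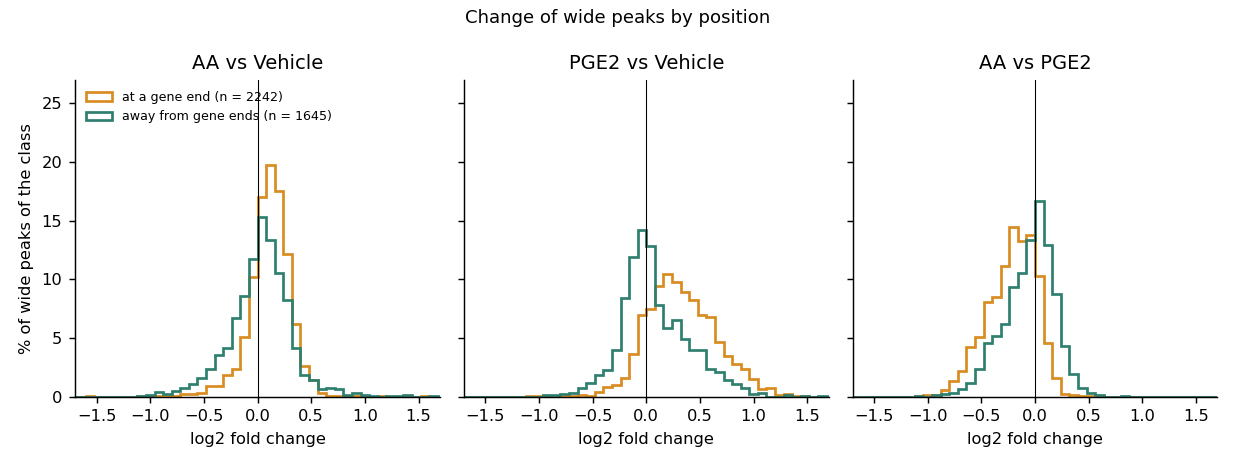
Distribution of the log2 fold change (x axis) as a percent of wide peaks (y axis) for the 2242 at gene ends and the 1645 away from them, in AA vs Vehicle, PGE2 vs Vehicle and AA vs PGE2. With PGE2 the gene-end curve is centred at 0.30 and the other at 0.03; with AA they are centred at 0.12 and 0.04.

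The share of peaks called higher with PGE2 grew along the whole range of widths, as did the counts behind each peak. The widths came from consensus peaks of these same libraries, so width and counts are not independent, and the part of this in the trend was not tested. Over all tested peaks it was 6.46% under 300 bp, 9.65% from 300 to under 500 bp, 12.9% to under 750 bp, 15.1% to under 1000 bp and 27% to under 1500 bp. It then reached 41.0% from 1500 to under 2000 bp, 51.3% to under 2500 bp and 53.9% above that. Just inside the threshold, of the 234 wide peaks in the first 20 bp above it, 69 were higher and 37 lower with PGE2, and just outside it, of the 213 peaks in the last 20 bp below it, 72 were higher and 21 lower. With AA the same bands had 34 higher and 34 lower, and 42 higher and 23 lower.

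**Figure D4:**
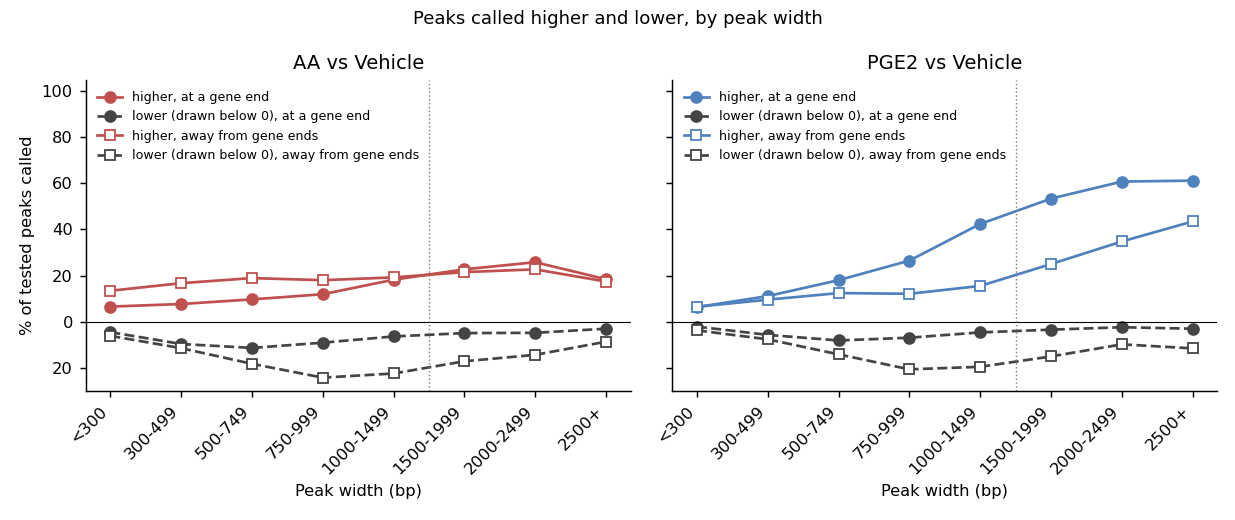
Percent of tested peaks called higher (above 0) and lower (drawn below 0) by peak width in bp, at gene ends (filled) and away from them (open), for AA vs Vehicle and PGE2 vs Vehicle; the dotted line marks 1500 bp and values are joined only to guide the eye. With PGE2 the share higher at gene ends is 6.32% under 300 bp and 61.2% at 2500 bp or more. With AA it rises from 6.52% under 300 bp to 25.8% from 2000 to under 2500 bp, and is 18.4% at 2500 bp or more.

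Wide and narrower peaks can be set side by side at similar strength. Among gene-end peaks with an average log2 CPM of 2 to 3, 32.5% of wide and 21.8% of narrower peaks were higher with PGE2. At 3 to 4 the shares were 48.1% and 34.3%, at 4 to 5 61.5% and 38.8%, at 5 to 6 59.1% and 35.4%, and at 6 to 7 43.3% and 25.0%. Away from gene ends the weakest class, of 2 to 3, had 13.1% of its 61 wide peaks higher and 14.0% of the narrower ones. In the classes above it the shares away from gene ends were 25.0% and 15.4% at 3 to 4, 31.7% and 13.6% at 4 to 5, 31.1% and 9.5% at 5 to 6, and 16.5% and 6.13% at 6 to 7. Wide peaks thus had the higher share in 9 of these 10 classes. These are descriptions of the peak classes, which were not tested against each other.

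The share called higher with PGE2 also followed the CpG content of the promoter. RefSeq windows were given for 16456 genes, and the 2631 windows inside wide peaks had a median of 26 CpG, against 21 in those inside narrower peaks, 4 in those in no peak and 14 over all 20084 windows. Of the 1124 wide peaks whose windows averaged 25 or more CpG, 71.1% were higher and 0.178% lower with PGE2, with a median log2 change of 0.46. At 15 to under 25 CpG 47.2% of 593 were higher, at 5 to under 15 it was 30% of 247, and under 5 it was 13.9% of 36, where 25.0% were lower. Narrower peaks followed the same order, with 62.0%, 31.6%, 12.6% and 6.82% higher. For AA against Vehicle the wide peaks of the same 4 classes, from the most CpG to the fewest, had 26.9%, 21.9%, 17.8% and 16.7% higher. In that order 1.07%, 4.38%, 13.4% and 25.0% were lower with AA.

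The libraries of a group also differed along this axis. In wide peaks with 25 or more CpG, PGE2-2 exceeded PGE2-1 by a median of 0.23 on the log2 scale, AA-2 exceeded AA-1 by 0.05, and Vehicle-2 differed from Vehicle-1 by -0.03. Under 5 CpG the same differences were 0.03, -0.03 and 0.04. Relative to the mean of the Vehicle libraries, the class with the most CpG stood at medians of 0.33 in PGE2-1 and 0.56 in PGE2-2, and at 0.14 in AA-1 and 0.20 in AA-2. Without PGE2-2, 66.3% of that class were called higher, and without PGE2-1, 85.1%. The part of this difference between the PGE2 libraries in the result was not tested.

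**Figure D5:**
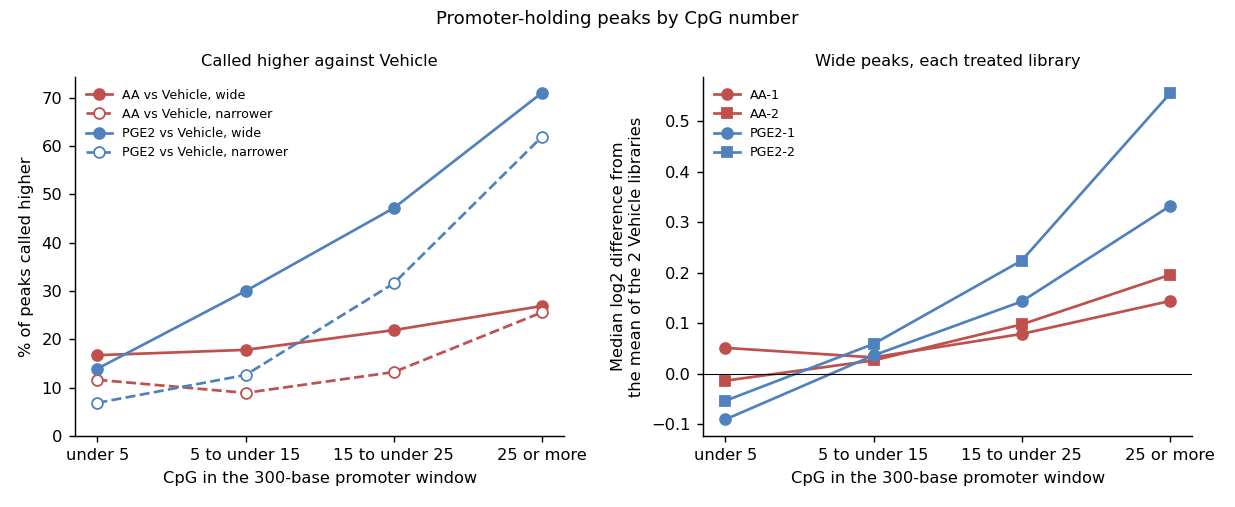
Left, percent of promoter-holding peaks called higher than Vehicle (y axis) by the number of CpG in the 300-base window (x axis), for AA and PGE2 and for wide and narrower peaks. Right, the median log2 difference of each treated library from the mean of the 2 Vehicle libraries in wide peaks; in the class of 25 or more CpG it is 0.14 and 0.20 in the AA libraries and 0.33 and 0.56 in the PGE2 libraries.

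The GC box of the KLF and SP factors was searched as GGGCGGG, on both strands like every motif, and lay in 59.9% of windows in wide peaks, 48.4% of those in narrower peaks and 34.5% of all windows, which include those in no peak. The NRF1 motif, searched as GCGCATGC, lay in 6.01% of windows in wide peaks, 5.56% in narrower peaks and 3.55% of all. The ETS motif, searched as CCGGAAG, had a lower share in wide than in narrower peaks, 15.4% against 21.9%, with 11.9% over all windows. The cyclic AMP response element (CRE), searched as TGACGTCA, had near equal shares of 3.5% in wide and 3.59% in narrower peaks, with 2.3% over all windows. The other motifs had lower shares in wide peaks than in narrower peaks and than in all windows. For the GATA factors the letters AGATAA gave 4.87% in wide peaks, 5.68% in narrower peaks and 9.57% of all. For AP-1, the dimer of FOS and JUN proteins, TGANTCA gave 4.45%, 4.79% and 7.06% in that order. For the TEAD factors, which carry YAP to DNA, GGAATG gave 9.62%, 11.5% and 13.4%. For the CDX homeobox factors of the intestine TTTATGG gave 1.1%, 1.77% and 2.3%. For HNF4, a nuclear receptor of enterocytes, CAAAGTCCA gave 0.228%, 0.587% and 0.463%. For NFY, a promoter-binding trimer, CCAAT gave 34.4%, 41.5% and 38.1%. These shares were not tested against each other. With PGE2, 62.0% of the 1310 wide peaks with a KLF/SP match were higher, against 50.1% of the 690 without. For the CRE, the element bound by the cyclic AMP responsive factor CREB, the shares were 46.8% of 77 with a match and 58.3% of 1923 without. With and without a match they were 65.2% and 56.5% for ETS, and 62.9% and 57.5% for NRF1. In the same order they were 36.6% and 59.2% for GATA, 49.5% and 58.3% for AP-1, and 53.1% and 58.5% for TEAD. For NFY they were 52.7% and 61.1%, for CDX 44.4% (of 27) and 58.1%, and for HNF4 50.0% (of 6) and 57.9%. How far these shares follow CpG content was not tested.

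The largest gain with PGE2 was near Nsd1, which encodes a histone methyltransferase. The wide peak at chr13:55210693-55213097 (mm10) had 36.5 and 46.6 CPM with PGE2 and 15.6 and 14.4 with Vehicle, and the AA libraries lay between at 22.3 and 24.7. Its log2 change with PGE2 was 1.47 ± 0.10 (edgeR adjusted p = 6.2e-11). At Zfp664, a zinc finger gene that shares the peak with the start of Ccdc92, PGE2 gave 39.1 and 44.3 CPM, AA 21 and 25.8 CPM and Vehicle 18.8 and 17.5 CPM. Ube2d2a, which encodes a ubiquitin-conjugating enzyme, and Vps9d1 rose with PGE2 by 1.34 ± 0.10 and 1.21 ± 0.11, and with AA by 0.45 ± 0.11 and 0.55 ± 0.12.

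In some peaks the PGE2 libraries stood well apart from each other. Near Pabpc1, which encodes a poly(A)-binding protein, PGE2-1 had 40.4 and PGE2-2 59.3 CPM, against 18.9 and 18.7 CPM in Vehicle (log2 change 1.41 ± 0.26, edgeR adjusted p = 0.032). At Tcf12, a basic helix-loop-helix factor, the PGE2 libraries had 16.1 and 26.0 CPM and the Vehicle libraries 8.81 and 9.54 (1.2 ± 0.26, adjusted p = 0.024). At the Elf2 promoter the values were 29.0 and 51.2 CPM with PGE2 against 21.7 and 17.7 with Vehicle, which did not pass the test (1.02 ± 0.36, adjusted p = 0.16).

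Lmcd1, Chrm3, Nrp1 and Slc6a15, given above, were also among the largest losses with PGE2. Lypd6, an Ly6 family gene, had 12.3 and 14.4 CPM with AA, 11.9 and 13.0 with PGE2, and 25.4 and 22.8 with Vehicle, in a peak 43.5 kb from its nearest end. Pax9, a paired box factor gene, fell by 0.87 with PGE2 (SE 0.15) and by 0.73 with AA (SE 0.14). The peak near Fosb, an AP-1 gene induced early by growth signals, had 30.1 and 32.9 CPM with AA, 24.9 and 24.0 with PGE2, and 43.3 and 44.2 with Vehicle. It fell by 0.84 with PGE2 (SE 0.08, edgeR adjusted p = 6.1e-11) and fell by 0.48 with AA (SE 0.08, adjusted p = 2.7e-06), and AA exceeded PGE2 by 0.36 ± 0.08 (adjusted p = 0.0025). The AA and PGE2 comparisons share the Vehicle libraries, so a low or high Vehicle value enters both.

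Set directly against each other, AA was higher than PGE2 in 191 wide peaks (4.91%) and lower in 897 (23.1%), against 5.06% and 4.88% of all tested peaks. The median log2 difference was -0.13. At gene ends 24 were higher (1.07%) and 671 lower (29.9%), and away from gene ends 167 were higher (10.2%) and 226 lower (13.7%). Narrower peaks had 1.61% higher and 14.3% lower at gene ends, and 5.65% and 2.35% away from them. No wide peak with 25 or more CpG was higher with AA than with PGE2 by edgeR and 439 of 1124 (39.1%) were lower. Narrower peaks of that CpG class were close to this, with 0.23% higher and 33.2% lower. The count of lower peaks rested on single libraries: it was 12.8% of wide peaks without PGE2-2, 38.6% without PGE2-1, 7.26% without AA-1 and 13.7% without AA-2. It was 4.03% by DESeq2.

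The largest excess of AA over PGE2 was near Hspa5, which encodes the chaperone BiP. The peak held no promoter window and had its centre inside Rabepk, 2538 bp from the nearest end of Hspa5. AA gave 15.4 and 17.0 CPM, PGE2 9.16 and 9.26, and Vehicle 9.42 and 10.9. AA exceeded PGE2 by 0.81 ± 0.12 (edgeR adjusted p = 1.7e-05) and Vehicle by 0.67 ± 0.12 (adjusted p = 1.6e-05), while PGE2 against Vehicle gave -0.14 ± 0.13 (adjusted p = 0.47). At Isx, an intestine-specific homeobox gene that restrains uptake of provitamin A carotenoids, levels were 64.8 and 63.7 CPM with AA, 43.8 and 43.6 with PGE2, and 34.9 and 35.5 with Vehicle. All 3 differences there passed: 0.87 ± 0.07 for AA against Vehicle, 0.31 ± 0.07 for PGE2 against Vehicle and 0.56 ± 0.06 for AA against PGE2. Rrbp1, a ribosome-binding protein of the endoplasmic reticulum, and Clec2e, a C-type lectin, came out higher with AA because PGE2 was below Vehicle. Rrbp1 had 48.1 and 50.7 CPM with AA, 36.9 and 32.3 with PGE2, and 55.9 and 54.5 with Vehicle. Siah1a, a ubiquitin ligase gene, had 24.4 and 21.8 CPM with AA, 14.2 and 17.3 with PGE2, and 15.2 and 17.5 with Vehicle.

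The 5 largest called deficits of AA against PGE2 were near Sumo2, Phyhipl, Pax2, Insm2 and Ube2d2a. Sumo2, the gene of a small ubiquitin-like modifier whose promoter is shown above, had 9.64 and 9.22 CPM with AA, 16.3 and 22.1 with PGE2, and 8.96 and 7.93 with Vehicle. AA was below PGE2 there by 1.02 (SE 0.13, edgeR adjusted p = 4e-06), and AA against Vehicle gave 0.16 ± 0.15 (adjusted p = 0.44). Phyhipl had 4.93 and 5.47 CPM with AA, 8.93 and 12.1 with PGE2, and 6.74 and 5.19 with Vehicle. Pax2 and Insm2, genes of developmental transcription factors, had 2.53 to 4.5 CPM over the AA libraries, 6.41 to 8.72 CPM over the PGE2 libraries and 3.6 to 5.11 CPM over the Vehicle libraries.

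Among the widest peaks were those near Gadd45g (3797 bp), Fgfr3, Cdk6, Dnajb13, Tle1, Msl1 and Ihh. The peak near Msl1 had 25.4 and 25.9 CPM with AA, 36.9 and 44.8 with PGE2, and 23.0 and 22.0 with Vehicle, so both PGE2 libraries were above the other 4. None of these 7 peaks passed the test as higher with AA, and Dnajb13 was lower by 0.21 (SE 0.08, edgeR adjusted p = 0.031). With PGE2, Msl1, a subunit of a histone acetyltransferase complex, rose by 0.86 ± 0.09, Tle1, a Groucho corepressor, by 0.48 ± 0.10, Fgfr3, a growth factor receptor, by 0.38 ± 0.07, and Cdk6, a G1 kinase, by 0.32 ± 0.07. Ihh, the hedgehog ligand of the epithelium, rose by 0.31 ± 0.06 and Gadd45g by 0.17 ± 0.06, and Dnajb13 fell by 0.30 (SE 0.08).

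The densest wide peak lay inside Sfi1, 11.3 kb from the nearest end of that gene, with 298 and 302 CPM with AA, 312 and 309 with PGE2, and 249 and 256 with Vehicle. How uniquely reads map there was not tested. The promoter peaks of Abhd11 and Cdca3, a cell division gene, were also among the 6 densest and passed no test: Cdca3 had 162 and 163 CPM with AA, 166 and 158 with PGE2, and 166 and 165 with Vehicle. At the other end Kcnj4, a potassium channel gene, had 5.56 and 3.59 CPM with AA, 6.33 and 9.18 with PGE2, and 3.37 and 4.42 with Vehicle.

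Of the 3347 genes, 3094 had 1 wide peak, 232 had 2, 20 had 3 and Slc16a1, a lactate and butyrate transporter gene, had 4. Its promoter peak rose with PGE2 (41.3 and 55.8 CPM, against 33.0 and 32.3 with Vehicle; log2 change 0.57 ± 0.13, edgeR adjusted p = 0.013). The peaks 38.5 and 4.24 kb from its nearest end fell, by 0.34 and 0.38 with PGE2 and by 0.31 and 0.25 with AA, and the 4th did not pass against Vehicle. Afap1l1, an actin filament protein gene, likewise had 3 wide peaks that moved apart: with AA one rose by 0.41 ± 0.08, one fell by 0.92 (SE 0.16) and one gave 0.07 ± 0.07. Near Gata4, a factor of proximal intestine identity, 1 of 3 rose with PGE2, by 0.18 ± 0.06, and none was called with AA.

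The 19 lists of intestinal and signalling genes took in each wide peak whose nearest gene end, within 50 kb, was of a listed gene; the counts below stand beside the shares over all wide peaks, 22.7% higher and 9.78% lower with AA, and 43.6% and 7.77% with PGE2. Intestinal identity factors had 23 wide peaks at 18 of 26 genes. With AA 3 were higher and 3 lower, and with PGE2 5 were higher and 2 lower, with medians of 0.01 and -0.03. Isx is given above; Hnf4a, a master factor of enterocytes, had 71.8 and 72.9 CPM with AA, 54.6 and 58.5 with PGE2, and 56.9 and 59.8 with Vehicle (AA against Vehicle 0.31, adjusted p = 6.9e-05). The peak of Cdx2, the caudal homeobox factor, had 68.2 and 70.2 CPM with AA, 68.2 and 67.6 with PGE2, and 59.3 and 63.6 with Vehicle. Grhl2, a grainyhead factor of epithelial junctions, rose with PGE2 by 0.36. Foxa2 fell with AA by 0.26. In these lists, genes other than the one with the smallest p in each list for AA or for PGE2 were chosen for mention after their values were seen.

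Crypt base stem cell genes had 12 wide peaks at 8 of 22 genes, with 1 higher and 3 lower with AA, and 2 higher and 3 lower with PGE2. The gene-end peak of Lgr5, the R-spondin receptor that marks stem cells, had 33.1 and 35.9 CPM with AA, 38.8 and 36.3 with PGE2, and 38.7 and 37.8 with Vehicle. It passed no test. Ascl2, a stem cell master factor, rose with both: 49.5 and 52.1 CPM with AA and 55.2 and 57.5 with PGE2, against 44.5 and 45.5 with Vehicle. A Sox4 peak fell with both, to 65.7 and 61.1 CPM with AA and 68.9 and 67.3 CPM with PGE2, against 77.0 and 80.3 CPM with Vehicle. Wnt pathway genes had 17 wide peaks at 15 of 22 genes, 3 higher and 3 lower with AA, and 5 higher and 1 lower with PGE2. Sp5, a Wnt target factor, had 16.9 and 17.5 CPM with AA, 25.1 and 26.5 with PGE2, and 14.9 and 15.1 with Vehicle, and Lef1, a Wnt effector, fell with AA by 0.57.

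Proliferation genes had 12 wide peaks at 11 of 29 genes. With PGE2 11 were higher and none lower by edgeR, and with AA 3 were higher and none lower. Rrm2, a ribonucleotide reductase subunit gene, had 58.2 and 59.6 CPM with AA, 66.5 and 68.7 with PGE2, and 46.9 and 51.8 with Vehicle. E2f1, a G1/S factor, had 38.5 and 37.0 CPM with AA, 43.6 and 48.4 with PGE2, and 33.3 and 28.8 with Vehicle. Ccne2, a cyclin of S phase entry, rose with PGE2 by 0.73, and the exception was the second wide peak near Mki67. The count was 9 of 12 without either PGE2 library and 7 of 12 under separate scaling of peaks at and away from gene ends, and 5 of 12 by DESeq2, which called none with AA.

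YAP and TEAD pathway genes had 10 wide peaks at 9 of 24 genes, 9 higher and none lower with PGE2, and 4 higher and 1 lower with AA. Ajuba, a LIM scaffold of the Hippo pathway, had 31.2 and 31.9 CPM with AA, 35.4 and 41.1 with PGE2, and 25.0 and 24.6 with Vehicle. Of the pair of wide peaks near Tead3, a TEAD factor gene, 1 rose with both (0.37 with AA and 0.72 with PGE2) and the other fell with AA by 0.31. The PGE2 count was 8 of 10 without PGE2-2, and 5 of 10 with separate scaling and also by DESeq2. Cyclic AMP and CREB response genes had 10 wide peaks, 7 higher and 1 lower with PGE2 (4 and 1 by DESeq2), and 4 higher and 1 lower with AA. Nr4a2, an orphan nuclear receptor gene induced by cyclic AMP, had 15.5 and 13.2 CPM with AA, 21.4 and 23.5 with PGE2, and 15.1 and 11.4 with Vehicle. Dusp1, a MAP kinase phosphatase gene, rose by 0.65 with PGE2 and 0.31 with AA, Creb1 by 0.52 and 0.30, and the 1 that fell was Fosb. Prkar2b, a regulatory subunit of protein kinase A, rose more with AA (54.1 and 58.4 CPM, against 38.2 and 36.9 CPM with Vehicle) than with PGE2 (48.0 and 46.9 CPM), a difference of 0.24 that passed (adjusted p = 0.012).

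Prostaglandin and leukotriene genes had 8 wide peaks at 8 of 24 genes, 1 higher and 2 lower with AA, and 2 higher and 1 lower with PGE2. Ptges, the inducible PGE2 synthase, had 20.8 and 21.6 CPM with AA, 17.8 and 17.0 with PGE2, and 15 and 14.0 with Vehicle, and only AA passed (0.54 ± 0.10, edgeR adjusted p = 4.3e-05, against 0.26 with PGE2, adjusted p = 0.065). Hpgd, which degrades prostaglandins, had 23.1 and 26.1 CPM with AA, 28 and 29.5 with PGE2, and 31.9 and 29.8 with Vehicle, and fell with AA by 0.33. Ptger4, the gene of the receptor EP4, passed no test (72.9 and 75.5 CPM with AA, 67.5 and 68.1 with PGE2, and 74.7 and 74.6 with Vehicle). Ptges3, a cochaperone also named as a synthase, rose with PGE2 by 0.77 ± 0.10.

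Secretory pathway genes had 11 wide peaks at 9 of 31 genes, 6 higher and 1 lower with AA, and 4 higher and 1 lower with PGE2. The promoter peak of Stt3b, a subunit of the glycosylation enzyme oligosaccharyltransferase, had 49.2 and 56.2 CPM with AA, 75.6 and 87.5 with PGE2, and 35.8 and 36.9 with Vehicle. Pdia3, a disulphide isomerase gene, had 48.4 and 50.2 CPM with AA, 59.8 and 69.9 with PGE2, and 34.5 and 32.0 with Vehicle. Junction and keratin genes had 12 wide peaks, 5 higher and none lower with AA, and 8 higher and none lower with PGE2. Cldn4, a claudin, had 66.4 and 60.3 CPM with AA, 59.1 and 56.0 with PGE2, and 47.9 and 45.9 with Vehicle. Ctnna1, α-catenin of adherens junctions, rose by 0.43 with AA and 0.83 with PGE2. With separate scaling the junction count with PGE2 was 2 higher and 2 lower, and by DESeq2 it was 2 higher.

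Immediate early genes had 19 wide peaks, 7 higher and 2 lower with AA and likewise 7 and 2 with PGE2. A peak 16286 bp from the nearest end of Klf6, a Krüppel-like factor, had 55.3 and 56.5 CPM with AA, 45.6 and 44.8 with PGE2, and 42.3 and 40.9 with Vehicle. The peak at Jun, an AP-1 subunit gene, had 163 and 172 CPM with AA, 161 and 161 with PGE2, and 176 and 177 with Vehicle, and fell with PGE2 by 0.14. EGF receptor and ERK feedback genes had 15 wide peaks, 2 higher and 2 lower with AA, and 5 higher and 2 lower with PGE2; the Egfr promoter peak fell with AA by 0.22 and Etv5, an ERK-induced ETS factor, rose with PGE2 by 0.40. Notch, BMP and TGF-β genes had 16, 4 higher and 1 lower with AA, and 5 higher and 1 lower with PGE2. Smad1, a BMP effector, had 14.9 and 16.7 CPM with AA, 23.1 and 25.5 with PGE2, and 16.0 and 13.3 with Vehicle.

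Lineage genes had few wide peaks. Absorptive genes had 4, 1 higher and 1 lower with AA, and 1 higher and none lower with PGE2 by edgeR. Slc5a1, the glucose transporter SGLT1, had 46.3 and 48.9 CPM with AA, 47.5 and 51.0 with PGE2, and 57.0 and 53.1 with Vehicle. Secretory cell genes had 8, 2 higher and 2 lower with AA, and 1 higher and 2 lower with PGE2. Atoh1, the factor that sets secretory fate, had 42.3 and 39.1 CPM with AA, 39.5 and 42.1 with PGE2, and 52.2 and 47.3 with Vehicle, and fell by 0.29 with each (adjusted p = 0.0013 with AA and 0.0018 with PGE2). Fetal and regenerative genes had 4, of which 2 were higher with each agent, at Cldn4 and F3. The marker lists of other cell types held 2 immune wide peaks, near Cd14 and Lck, neither called by edgeR, and 2 endothelial ones, of which Tek was higher with both agents (28.6 and 29.5 CPM with AA and 23.8 and 27 with PGE2, against 18.7 and 21.7 with Vehicle). Epithelial markers held 3 wide peaks, 1 higher with each agent.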

How the data were processed

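The authors' deposited table gave counts of read pairs per consensus peak for 6 libraries, 2 per group; per the file headers, featureCounts 1.6.3 counted 5′ ends and let a pair overlapping several peaks count in each. The submitters' processing notes also name Trim Galore, BWA, Picard, SAMtools, MACS2 and build mm10, without settings; no filter or merging rule is given there. Wide peaks were rows on chromosomes 1 to 19 with a width of at least 1500 bp. From these counts, edgeR 4.0.16 (R 4.3.3) fitted all 6 libraries after filterByExpr and TMM scaling (factors 0.969 to 1.02), with the robust quasi-likelihood test and Benjamini-Hochberg adjustment over the 89347 tested peaks; 1476 were filtered. CPM are on TMM-scaled totals, and changes carry SE. The fit had 3 residual degrees of freedom, a median biological coefficient of variation of 4.49% and a median prior of 42.3. It was tested on simulated data. Genes and promoter windows came from RefSeq on GRCm38.p6, the assembly of mm10, matched by coordinates.

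The peaks named were the 8 widest, the 6 densest and 4 least dense, the largest called changes without overlapping libraries in each comparison and direction (8 each against Vehicle, 5 each for AA against PGE2; average log2 CPM of at least 1), the smallest p in each gene list, and the genes with the most wide peaks; only some are printed. A peak among the widest is not reported here. The members and gene lists were chosen with earlier results of these data known. Alternatives were DESeq2 1.42.0, other scalings (limma 3.58.1 for cyclic loess), no filter, the replicate number as a block, the compared groups alone, other width thresholds and leaving out each library. Shares were compared with exact permutation tests. Replicate numbers were not treated as pairs.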

Additional observations from a re-analysis of the deposited data

How the results depend on the processing

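The percentages of wide peaks called by edgeR's quasi-likelihood test depended on single libraries, with 1 library left out at a time. With AA against Vehicle, 12.94% to 33.01% were higher (22.67% with all libraries; 12.94% without AA-2 and also without Vehicle-2, and 14.54% without Vehicle-1) and 5.969% to 11.4% lower. With PGE2 against Vehicle, 30.2% to 49.83% were higher and 3.576% to 7.615% lower. For AA against PGE2, 2.187% to 4.837% were higher and 7.255% to 38.59% lower. DESeq2 gave fewer calls: 5.943% higher and 2.598% lower with AA, 27.19% and 1.801% with PGE2, and 0.3925% and 4.029% for AA against PGE2. When peaks at gene ends were scaled apart from the rest, 13.48% were lower with PGE2 and 8.207% higher for AA against PGE2; with cyclic loess, 12.94% were lower and 38.18% higher with PGE2. The cause was not tested. The other scalings, no filter and the compared groups alone left these percentages within 1.5 times, and the share differences kept their sign under every alternative run.

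Deviations of same-numbered libraries correlated over tested peaks at 0.0421 for AA and PGE2, 0.0043 for AA and Vehicle, and -0.0254 for PGE2 and Vehicle. Over wide peaks alone the values were 0.200, -0.0899 and -0.224. There AA and PGE2 tended to deviate in the same direction, and each of them opposite to Vehicle, more so PGE2. The replicate number as a block gave 25.16% higher and 9.802% lower with AA, 46.8% and 7.898% with PGE2, and 4.965% and 27.32% for AA against PGE2. Of 75 named results 73 were called; none of the 73 was lost under the block, 14 were lost by DESeq2, which gave no adjusted p for Pax2 and Insm2 in AA against PGE2, 8 without Vehicle-1, and 5 or fewer under each other alternative. The 1 change of sign was at the peak near Lck, which was not called: its log2 change for PGE2 against Vehicle lay between -0.01797 (without PGE2-1) and 0.2186 (without PGE2-2). Classes without each PGE2 library or with separate scaling were chosen after seeing the data. With 2 libraries per group, no exact test of a share can pass, and peaks with more counts are called at smaller changes.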
